A study of Rattus norvegicus with 6 samples.

Results

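The genes described here mark lymphatic endothelium, the cell layer that lines lymphatic vessels, or signal to it: Lyve1, Prox1, Flt4, Pdpn, Vegfc, Reln and Mmrn1. They were taken by symbol from a gene table of RNA sequencing, and all 7 were found among its 34045 genes. The samples were calvarial bone defects, holes made in the skull roof, of male wild type Sprague-Dawley rats (an outbred albino stock). In 3 libraries the defects had received the CGG-Cit hydrogel and in 3 libraries the CGG hydrogel, and all were taken at week 4 after surgery. The labels do not spell out either name and hold no defect without a gel. Every group therefore carries a defect and an implant, and the labels give no age. Whether each library is a rat of its own is not stated, so p-values refer to the variation among libraries, part of which may be technical.

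Lymphatic vessels drain fluid and immune cells from tissue, and in the skull they run in the dura, the membrane under the bone. Prox1 is the transcription factor that gives endothelial cells their lymphatic identity. Flt4, also called VEGFR3, is the receptor on lymphatic endothelium for the growth factors VEGF-C and VEGF-D, which drive lymphatic sprouting. Several genes of the group are shared with other cells: Lyve1 also marks a class of tissue macrophages, Pdpn also marks osteocytes (the cells embedded in bone) and fibroblasts, and Mmrn1 is also stored in platelets.

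The libraries held 14744207 to 16224920 assigned reads. The samples carried bone transcripts, with Bglap (osteocalcin, made by osteoblasts) at 611 to 1552 FPKM in CGG-Cit libraries and 2666 to 3384 FPKM in CGG libraries. FPKM counts reads for each kilobase of a gene after scaling for library size. Because each library is a minced piece of tissue, fewer cells of a type and less RNA per cell cannot be told apart.

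Of the 7 genes, Mmrn1 was lower with the CGG-Cit gel, at 4.15 ± 1.43 FPKM in CGG-Cit libraries and 10.04 ± 0.694 FPKM in CGG libraries (mean ± SD, n = 3 each). Lyve1, Flt4, Pdpn, Vegfc and Reln did not pass the test in either direction. Prox1, the defining gene of the lineage, had 2 to 17 reads per library and was too low to be tested. Among related genes outside the group, Vegfd, the second ligand of Flt4, was 4.73-fold higher in CGG-Cit libraries, while Vegfc averaged 7.12 ± 1.21 FPKM in CGG-Cit libraries and 7.09 ± 1.41 FPKM in CGG libraries.

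Each test is limma on log2(FPKM + 1) over the 15965 genes that averaged 0.5 FPKM or more, and a gene passed at a Benjamini-Hochberg adjusted p under 0.05. Log2 fold changes are CGG-Cit minus CGG on that scale, where changes of low genes appear too small. By this rule 1 of the 6 tested lymphatic genes was lower and 0 were higher, or 16.7%, against 17.5% of all tested genes called in either direction (9.78% lower and 7.75% higher). At an unadjusted p under 0.05 the counts were again 1 lower and 0 higher, and limma's voom on the read numbers gave the same counts. More of all tested genes meet the unadjusted threshold, by a share not given here. Counts at an unadjusted p, here and below, therefore have no share of all genes beside them. The 2 groups of libraries did not overlap for 1 of the 6 genes, against 41.7% of all tested genes. The share of lymphatic genes called was thus close to that of the table as a whole.

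**Figure D1:**
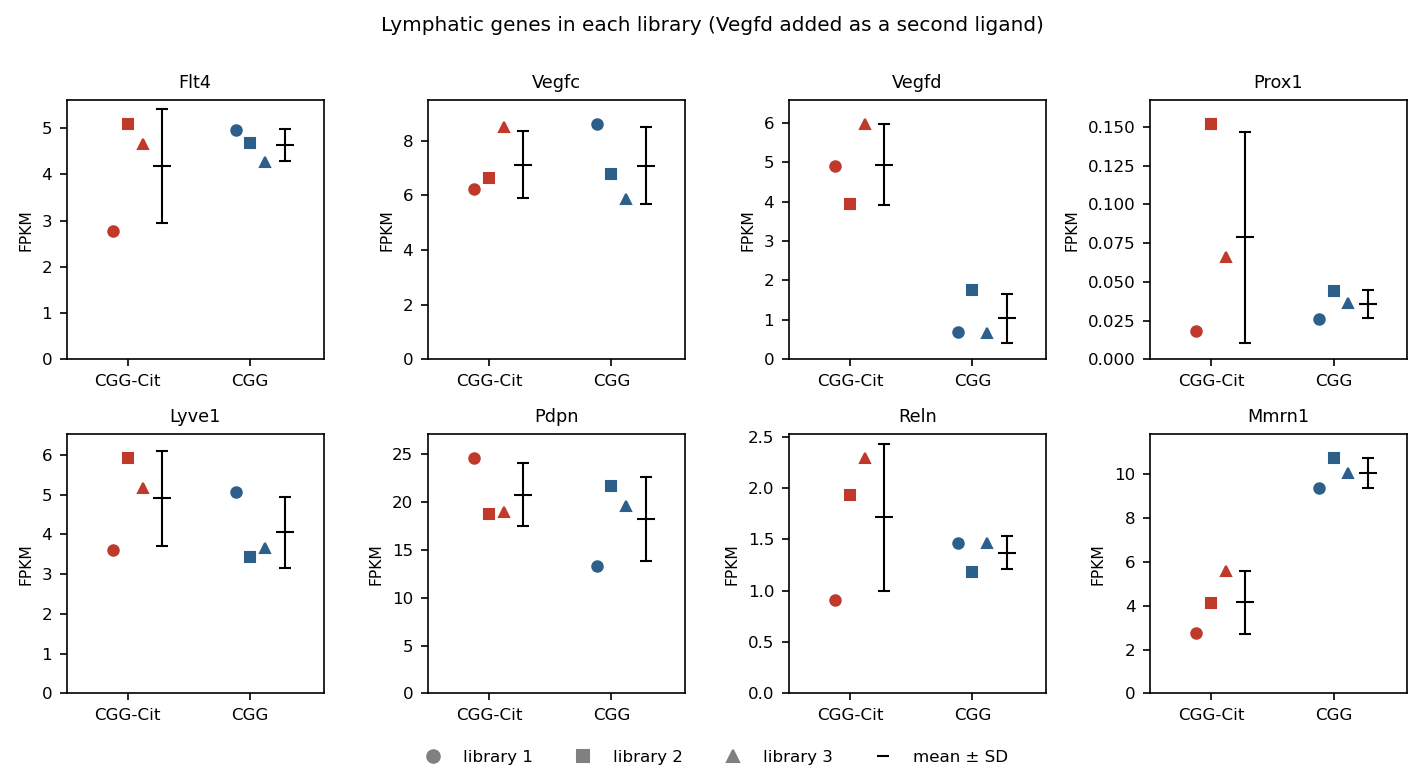
FPKM (vertical axis, from 0) of the 7 lymphatic genes and of Vegfd in each of the 3 CGG-Cit libraries (red, left) and the 3 CGG libraries (blue, right); marker shapes are library numbers and black bars the mean ± SD. The CGG-Cit libraries lie below all CGG libraries for Mmrn1 and above them for Vegfd, and the groups overlap in the other 6 panels.

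Vegfc (ENSRNOG00000011416, chr16:40440207-40555576, minus strand) encodes VEGF-C, the main growth factor of lymphatic endothelium. Coordinates of genes are given as the deposited table lists them, and they could not be tied to a genome build. Vegfc had 6.24, 6.63 and 8.51 FPKM in CGG-Cit libraries, against 8.62, 6.79 and 5.86 FPKM in CGG libraries. The highest and the lowest library were both CGG libraries, and the groups overlapped. The log2 fold change was 0.01 ± 0.170 (SE; 95% interval -0.40 to 0.42; adjusted p = 0.973). The table lists a small RNA gene without reads on the opposite strand inside Vegfc.

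Vegfd (ENSRNOG00000003587), whose product binds the same receptor, had 4.90, 3.94 and 5.98 FPKM in CGG-Cit libraries, against 0.703, 1.76 and 0.670 FPKM in CGG libraries. Every CGG-Cit library lay above every CGG library. The means were 4.94 ± 1.02 FPKM in CGG-Cit libraries and 1.05 ± 0.621 FPKM in CGG libraries, and the log2 fold change was 1.56 ± 0.244 (95% interval 0.98 to 2.15; adjusted p = 0.0151 by limma). Without CGG library 3 Vegfd did not pass (adjusted p = 0.0598). Which cells the Vegfd reads came from was not tested.

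The genes that process VEGF-C or carry its signal were followed as a list of 15 tested genes. In this list 4 were higher, 0 were lower and 11 did not pass, or 26.7% called, against 17.5% of all tested genes (7.75% higher and 9.78% lower). The median log2 fold change was 0.38, against 0.002 for all tested genes. The list's counts at an unadjusted p under 0.05 were 6 higher and 1 lower, and voom called 4 higher and 0 lower. Besides Vegfd, the genes called were Svep1, Ptpn14 and Itgb1, and which cells their reads came from was not tested. Svep1, a large extracellular matrix protein needed for lymphatic development in mouse and zebrafish, had 8.65, 8.30 and 7.47 FPKM in CGG-Cit libraries, against 2.50, 3.13 and 1.71 FPKM in CGG libraries. It was 3.33-fold higher in CGG-Cit libraries, with a log2 fold change of 1.43 ± 0.175 (adjusted p = 0.00832) that passed in all 16 alternative analyses. Ptpn14, a phosphatase linked to Flt4, averaged 6.23 ± 0.387 FPKM in CGG-Cit libraries and 3.79 ± 0.332 FPKM in CGG libraries (adjusted p = 0.0215 by limma). Itgb1, an integrin subunit made by most cells, averaged 178 ± 6.81 FPKM in CGG-Cit libraries and 134 ± 11.7 FPKM in CGG libraries (adjusted p = 0.0335 by limma). The Ptpn14 call was lost without CGG-Cit library 2 (0.0810), CGG library 1 (0.0609) or CGG library 3 (0.0755), and the Itgb1 call without any one library except CGG-Cit library 3 (adjusted p up to 0.111). The count of higher genes in the list was 2 without CGG-Cit library 2 or CGG library 1, 1 without CGG library 3 and 6 after rescaling to TPM. Over all 15965 tested genes the count of higher genes changed as well, from 1237 to 149, 536, 122 and 2203 in the same order. List counts with a library left out, here and below, stand beside such changes of the whole table.

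The receptor did not pass the test. Flt4 (ENSRNOG00000002511, chr10:35078726-35121599, plus strand) had 2.78, 5.10 and 4.66 FPKM in CGG-Cit libraries, against 4.96, 4.68 and 4.26 FPKM in CGG libraries. CGG-Cit library 1 was the lowest of the 6 and CGG-Cit library 2 the highest. The means were 4.18 ± 1.23 FPKM in CGG-Cit libraries and 4.63 ± 0.349 FPKM in CGG libraries, and the log2 fold change was -0.15 ± 0.198 (95% interval -0.62 to 0.32; adjusted p = 0.631 by limma). Without CGG-Cit library 1 it was 0.06. Which cells the Flt4 reads came from was not tested. Kdr (VEGFR2), which binds processed VEGF-C and is made by blood and lymphatic endothelium, averaged 15.2 ± 4.28 FPKM in CGG-Cit libraries and 9.70 ± 0.898 FPKM in CGG libraries. Kdr did not pass (log2 fold change 0.57 ± 0.192; adjusted p = 0.0869), but passed after rescaling to TPM (0.0448) and without CGG-Cit library 3 (0.0395). Nrp2, a co-receptor of Flt4, averaged 44.7 ± 6.48 FPKM in CGG-Cit libraries and 34.0 ± 3.02 FPKM in CGG libraries (adjusted p = 0.0879 by limma), and likewise passed only after rescaling to TPM (0.0440) and without CGG-Cit library 3 (0.0471). Adamts3, the protease that activates VEGF-C, averaged 2.27 ± 0.390 FPKM in CGG-Cit libraries and 3.57 ± 0.670 FPKM in CGG libraries (adjusted p = 0.0953). The angiopoietin genes and their receptors, which act on lymphatic vessel growth, did not pass either: Angpt1, Angpt2, Tek and Tie1 had log2 fold changes of 0.26 to 0.44 and adjusted p of 0.177 to 0.300.

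**Figure D2:**
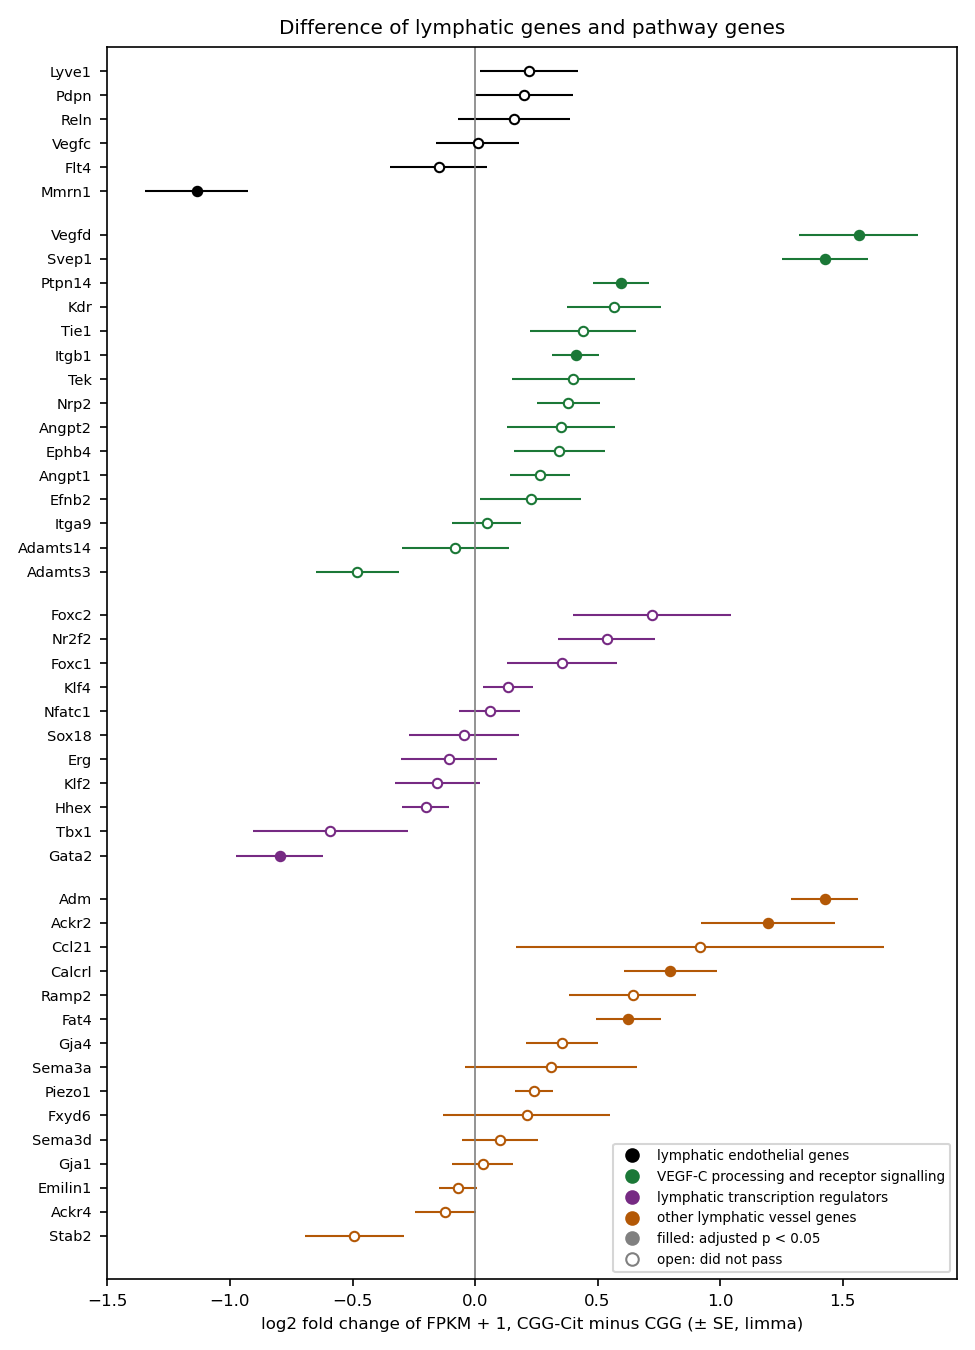
Log2 fold change of FPKM + 1, CGG-Cit minus CGG (horizontal axis, ± SE from limma), for the 6 tested lymphatic genes (black) and 41 genes of 3 related lists, sorted within each list; filled circles passed at an adjusted p under 0.05. Mmrn1 is the only filled black circle, at -1.14, and 8 genes of the related lists (Ackr2 among them) are filled on the right against 1 (Gata2) on the left.

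Prox1 (ENSRNOG00000003694, chr13:108382399-108443294, plus strand) had 0.0181, 0.152 and 0.0659 FPKM in CGG-Cit libraries, against 0.0260, 0.0442 and 0.0363 FPKM in CGG libraries. These values stand for 2, 17 and 8 reads in CGG-Cit libraries and 3, 5 and 4 reads in CGG libraries. CGG-Cit library 2 held most of the CGG-Cit reads, CGG-Cit library 1 had the fewest of all, and the groups overlapped. The exact Poisson 95% interval, which covers counting error only, was 9.90 to 27.2 reads for CGG-Cit library 2 and 0.242 to 7.22 reads for CGG-Cit library 1. Summed over each group, 27 reads in CGG-Cit libraries stood against 12 in CGG libraries, a depth-corrected ratio of 2.22 with an exact 95% interval of 1.09 to 4.80. That interval leaves out the spread between libraries. Fitted by limma without the filter on low values, Prox1 had a log2 fold change of 0.06 and an adjusted p of 0.575. Fold changes shrink on the log2(FPKM + 1) scale at values so low, so this fit does not decide whether Prox1 differed. Relative to the pan-endothelial list its difference was -0.03 in log2(FPKM + 1), with overlap (exact permutation p = 1.0). The log2(FPKM + 1) of Prox1 is close to 0 in every library, so this value mostly follows the list mean, which differed by 0.08. It says nothing of Prox1 relative to endothelium.

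The transcription regulators that act with or beside Prox1 formed a list of 11 tested genes. Of these 0 were higher, 1 was lower and 10 did not pass, or 9.09% called, against 17.5% of all tested genes. The list's median log2 fold change was -0.05, and at an unadjusted p under 0.05 there were 1 higher and 1 lower (by voom 0 higher and 1 lower). Sox18, which switches on Prox1, averaged 21.0 ± 3.26 FPKM in CGG-Cit libraries and 22.2 ± 6.56 FPKM in CGG libraries (adjusted p = 0.904). Nr2f2 (COUP-TFII), the partner of Sox18 in that step, averaged 23.1 ± 3.86 FPKM in CGG-Cit libraries and 15.7 ± 3.66 FPKM in CGG libraries (adjusted p = 0.106). After rescaling to TPM Nr2f2 passed (0.0446), and the list then held 1 higher gene. Foxc2, which shapes collecting vessels and their valves, averaged 8.59 ± 2.93 FPKM in CGG-Cit libraries and 4.93 ± 2.35 FPKM in CGG libraries (adjusted p = 0.162). Gata2, which acts in lymphatic valves and in blood stem cells and mast cells, was the gene called. It had 3.38, 3.86 and 5.64 FPKM in CGG-Cit libraries, against 7.40, 8.87 and 7.93 FPKM in CGG libraries, with no overlap. Its log2 fold change was -0.80 ± 0.177 (adjusted p = 0.0290 by limma), and the call was lost without any one library except CGG-Cit library 3 (adjusted p up to 0.101).

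Lyve1 (ENSRNOG00000026902, chr1:175663266-175676699, minus strand) encodes a hyaluronan receptor of lymphatic endothelium. It had 3.61, 5.93 and 5.18 FPKM in CGG-Cit libraries, against 5.06, 3.42 and 3.66 FPKM in CGG libraries. A CGG-Cit library was the highest and a CGG library the lowest, and the groups overlapped. The means were 4.90 ± 1.18 FPKM in CGG-Cit libraries and 4.05 ± 0.884 FPKM in CGG libraries, and the log2 fold change was 0.22 ± 0.201 (95% interval -0.26 to 0.70; adjusted p = 0.474 by limma).

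Most macrophage genes, whose cells can also carry Lyve1, were higher in CGG-Cit libraries. Of 13 tested genes of the list 69.2% were called, against 17.5% of all tested genes. In CGG-Cit libraries 9 of the list were higher, 0 were lower and 4 did not pass, with a median log2 fold change of 0.83. At an unadjusted p under 0.05 the counts were 11 and 0, and by voom 10 and 0. Their summed level was 1443 to 2089 FPKM in CGG-Cit libraries and 810.2 to 985 FPKM in CGG libraries, and Marco was listed at 0 in every library. Folr2, a folate receptor that often accompanies Lyve1 on resident macrophages, averaged 114 ± 33.5 FPKM in CGG-Cit libraries and 35.5 ± 5.82 FPKM in CGG libraries (log2 fold change 1.63 ± 0.218; adjusted p = 0.0109). The Folr2 call was lost without CGG library 3 (0.0505). Mertk, a receptor for dying cells, averaged 34.6 ± 8.29 FPKM in CGG-Cit libraries and 10.6 ± 1.10 FPKM in CGG libraries (adjusted p = 0.00591 by limma). Going the other way, 2 genes of the list had a negative log2 fold change and did not pass. Cd163 averaged 15.3 ± 5.64 FPKM in CGG-Cit libraries and 21.3 ± 4.38 FPKM in CGG libraries (adjusted p = 0.223 by limma). F13a1 averaged 21.6 ± 9.29 FPKM in CGG-Cit libraries and 33.1 ± 3.98 FPKM in CGG libraries (adjusted p = 0.170 by limma). The count of higher macrophage genes was 3 without CGG-Cit library 1 or 2, 4 without CGG library 2 and 2 without CGG library 3. Without CGG-Cit library 3 it was 8, with 1 lower.

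Relative to that list, Lyve1 stood lower in all 3 CGG-Cit libraries. Its log2(FPKM + 1) relative to the mean of the macrophage list was -3.77, -3.40 and -3.34 in CGG-Cit libraries, against -2.81, -3.13 and -2.83 in CGG libraries. The groups did not overlap, and the difference of -0.58 reached the smallest two-sided p that an exact permutation test of 3 against 3 allows, 0.1. This difference lay in the list: CGG-Cit minus CGG, the macrophage mean differed by 0.80, while Lyve1 itself differed by 0.22, also upward. Against 11 pan-endothelial genes the difference was 0.14, with overlap (exact permutation p = 0.8). What part of the Lyve1 reads came from macrophages was not tested.

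**Figure D3:**
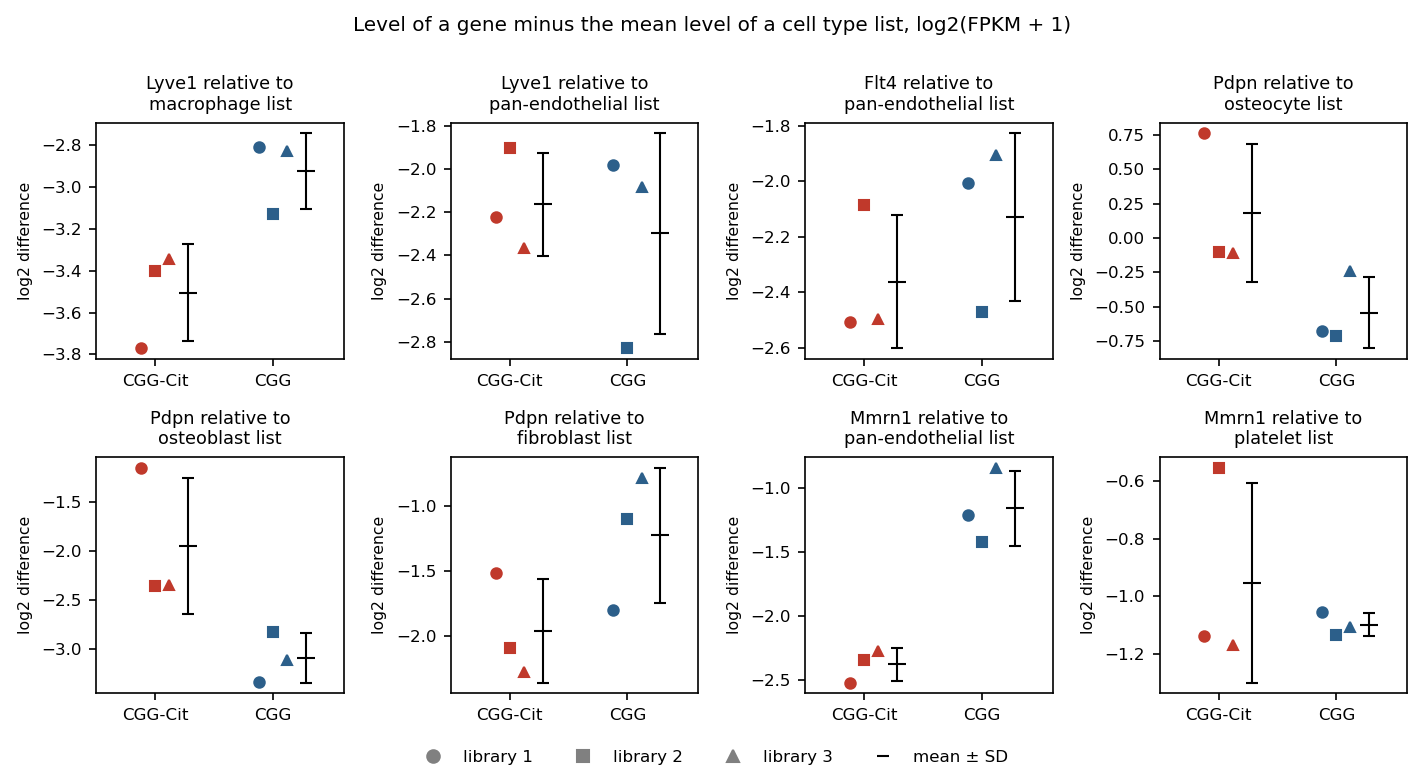
Level of Lyve1, Flt4, Pdpn or Mmrn1 minus the mean of a cell type list in the same library (vertical axis, log2(FPKM + 1)) for 3 CGG-Cit libraries (red, left) and 3 CGG libraries (blue, right), with mean ± SD in black. The groups do not overlap for Lyve1 against macrophage genes, Pdpn against osteocyte and osteoblast genes and Mmrn1 against pan-endothelial genes, and Mmrn1 against platelet genes overlaps.

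Pdpn (ENSRNOG00000014961, chr5:161947137-161981441, minus strand) encodes podoplanin, a surface glycoprotein that binds the platelet receptor CLEC-2 and keeps blood and lymph vessels apart. It was the most abundant of the 7 genes per length, with 24.6, 18.7 and 19.0 FPKM in CGG-Cit libraries, against 13.3, 21.7 and 19.6 FPKM in CGG libraries. CGG-Cit library 1 was the highest and CGG library 1 the lowest, and the others lay close together across the groups. The log2 fold change was 0.20 ± 0.199 (95% interval -0.28 to 0.67; adjusted p = 0.515 by limma), and leaving out 1 library at a time gave -0.002 to 0.33, the lower end without CGG library 1.

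Among the cell types that can carry Pdpn, most osteoblast genes were lower and most fibroblast genes higher in CGG-Cit libraries, while no osteocyte gene passed. Where 17.5% of all tested genes were called, 0 of 9 tested osteocyte genes passed either way. Their median log2 fold change was -0.59, and their summed level was 316 to 465 FPKM in CGG-Cit libraries and 531 to 856 FPKM in CGG libraries. At an unadjusted p under 0.05 there were 1 higher and 4 lower, and by voom 1 higher and 2 lower, and without CGG-Cit library 3 limma called 1 higher and 1 lower. Mepe, a matrix protein of osteocytes, averaged 140 ± 40.8 FPKM in CGG-Cit libraries and 269 ± 75.5 FPKM in CGG libraries (adjusted p = 0.0608 by limma, and 0.0495 by voom). Of 10 tested osteoblast genes 7 were lower and 0 were higher (8 and 0 at an unadjusted p under 0.05, and 7 and 0 by voom), with a median of -1.07. This was 70.0% called, against 9.78% of all tested genes called lower. Ibsp, bone sialoprotein, averaged 164 ± 54.8 FPKM in CGG-Cit libraries and 361 ± 38.3 FPKM in CGG libraries (adjusted p = 0.0295 by limma). Of 10 tested fibroblast genes 6 were higher and 0 were lower (7 and 0 at an unadjusted p under 0.05 and by voom), with a median of 1.01. This was 60.0% called, against 7.75% of all tested genes called higher. Pdgfra, a growth factor receptor of fibroblasts, averaged 33.0 ± 0.800 FPKM in CGG-Cit libraries and 19.6 ± 1.51 FPKM in CGG libraries (adjusted p = 0.00832 by limma). The osteoblast count was 1 without CGG-Cit library 2 or CGG library 2 or 3 and 2 without CGG library 1, and the Ibsp call was lost in each of those 4 (adjusted p up to 0.102). The fibroblast count was 3 without CGG-Cit library 2 or CGG library 3 and 4 without CGG-Cit library 1 or 3 or CGG library 2.

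In log2(FPKM + 1), Pdpn stood at 0.18 relative to the osteocyte list in CGG-Cit libraries and at -0.54 in CGG libraries. Relative to the osteoblast list it stood at -1.95 in CGG-Cit libraries and -3.09 in CGG libraries. Neither pair of groups overlapped (exact permutation p = 0.1 for each, the smallest possible). Most of each difference lay in the list: CGG-Cit minus CGG, the osteocyte mean differed by -0.53, the osteoblast mean by -0.94 and Pdpn by 0.20. Relative to the fibroblast list it stood at -1.96 in CGG-Cit libraries and -1.23 in CGG libraries, with overlap (exact permutation p = 0.2). What part these cell types had in the Pdpn level was not tested.

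Reln (ENSRNOG00000021441, chr4:9347528-9773670, plus strand) encodes reelin, a secreted glycoprotein best known from the brain that lymphatic endothelium also releases. It had 0.914, 1.93 and 2.29 FPKM in CGG-Cit libraries, against 1.46, 1.18 and 1.47 FPKM in CGG libraries. The lowest and the highest library were both CGG-Cit libraries. The reads behind these values numbered 155, 331 and 427 in CGG-Cit libraries, against 259, 205 and 248 in CGG libraries. The means were 1.71 ± 0.715 FPKM in CGG-Cit libraries and 1.37 ± 0.164 FPKM in CGG libraries, and the log2 fold change was 0.16 ± 0.229 (95% interval -0.39 to 0.71; adjusted p = 0.657 by limma).

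Mmrn1 (ENSRNOG00000024986, chr4:90990088-91038748, plus strand) encodes multimerin 1, a large adhesive protein that endothelial cells secrete and that platelets store in their granules. It had 2.74, 4.11 and 5.60 FPKM in CGG-Cit libraries, against 9.34, 10.7 and 10.04 FPKM in CGG libraries. These values rest on 193, 292 and 433 reads in CGG-Cit libraries and 687, 773 and 704 reads in CGG libraries. Every CGG-Cit library lay below every CGG library, and the ratio of the means, CGG-Cit over CGG, was 0.413. The log2 fold change was -1.14 ± 0.209 (95% interval -1.64 to -0.64; adjusted p = 0.0199 by limma). It kept its direction in all 16 alternatives, at -1.33 to -0.93 when 1 library was left out. The call was lost without CGG-Cit library 2 (0.0693), CGG library 1 (0.0515), CGG library 2 (0.0610) or CGG library 3 (0.0736).

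Most genes of platelets and of megakaryocytes, the marrow cells that shed them, were lower in the same libraries. Of 11 tested genes of that list 81.8% were called, against 17.5% of all tested genes (9.78% lower). In CGG-Cit libraries 9 of the list were lower and 0 were higher (10 and 0 at an unadjusted p under 0.05 and by voom), with a median log2 fold change of -1.36. Their summed level was 227 to 485 FPKM in CGG-Cit libraries and 580.4 to 658 FPKM in CGG libraries, and Gp1bb was listed at 0 in every library. Clec1b, which encodes CLEC-2, the receptor of podoplanin, had 5.26, 4.67 and 9.08 FPKM in CGG-Cit libraries, against 15.6, 21.6 and 20.1 FPKM in CGG libraries. Its log2 fold change was -1.49 ± 0.239 (adjusted p = 0.0157), lost without CGG-Cit library 2 (0.0557), CGG library 2 (0.0514) or CGG library 3 (0.0646). The count of lower genes in the list was 1 without CGG-Cit library 1 or 2, 3 without CGG library 1, 0 without CGG library 2 or 3 and 10 without CGG-Cit library 3. Over all tested genes 1561 were lower. That count was 488 without CGG-Cit library 1, 249 without CGG-Cit library 2 and 1622 without CGG-Cit library 3. It was 666, 498 and 190 without CGG library 1, 2 and 3.

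General endothelial genes mostly did not pass. Of 11 tested pan-endothelial genes 9.09% were called, against 17.5% of all tested genes. In the list 0 were higher and 1 was lower, also by voom and at an unadjusted p under 0.05, and the median log2 fold change was 0.18. Their summed level was 269.7 to 433 FPKM in CGG-Cit libraries and 240.1 to 405 FPKM in CGG libraries, and Cldn5 was listed at 0 in every library. Cdh5, the adhesion molecule of all endothelium, had 30.1, 36.0 and 40.9 FPKM in CGG-Cit libraries, against 23.4, 36.4 and 24.7 FPKM in CGG libraries (adjusted p = 0.248). The gene called was Tal1, a transcription factor that megakaryocytes and red cell precursors also use, at 13.9 ± 5.37 FPKM in CGG-Cit libraries and 32.7 ± 4.30 FPKM in CGG libraries (adjusted p = 0.0252). That call was lost without any one library except CGG-Cit library 3 (adjusted p up to 0.0914).

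Relative to the pan-endothelial list, Mmrn1 stood at -2.52, -2.34 and -2.27 in CGG-Cit libraries, against -1.21, -1.42 and -0.839 in CGG libraries, in log2(FPKM + 1). The groups did not overlap, and the difference was -1.22 (exact permutation p = 0.1, the smallest possible). Most of it lay in Mmrn1: CGG-Cit minus CGG, Mmrn1 differed by -1.14 and the list mean by 0.08. It therefore largely repeats the difference of Mmrn1 itself. Relative to the platelet list it stood at -1.14, -0.552 and -1.17 in CGG-Cit libraries, against -1.05, -1.14 and -1.11 in CGG libraries. There the groups overlapped, with a difference of 0.15 (exact permutation p = 1.0). The part of platelet RNA in the Mmrn1 difference was not tested, since the 2 sources of Mmrn1 cannot be told apart in these libraries.

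**Figure D4:**
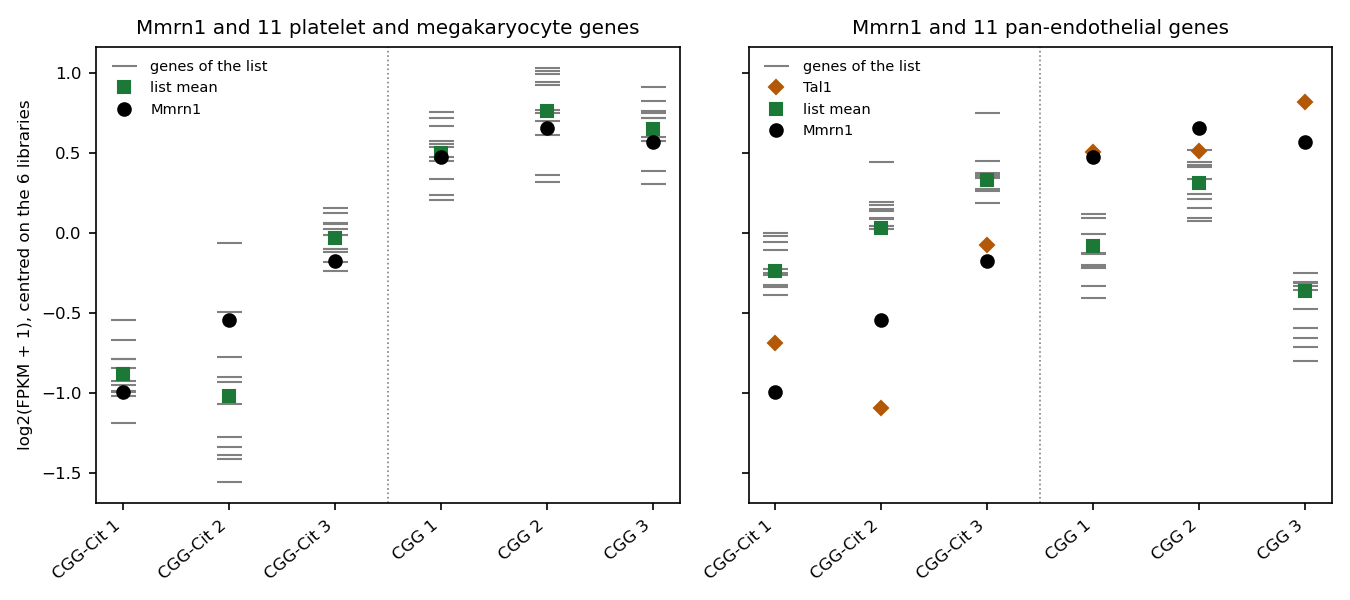
Log2(FPKM + 1) centred on the 6 libraries (vertical axis) for Mmrn1 (black circles) and each gene of the platelet list (left panel) or pan-endothelial list (right panel), grey dashes with the list mean as green squares; CGG-Cit libraries stand left of the dotted line. Mmrn1 lies within the spread of the platelet genes in all 6 libraries, and below most pan-endothelial genes in CGG-Cit libraries and above most in CGG libraries, where Tal1 (brown diamonds) lies too.

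Because Mmrn1 and Clec1b were both lower, the 250 bases upstream of their start sites are shown, from the RefSeq promoter table of the rat build GRCr8. The Mmrn1 stretch is chr4:91233166-91233415 and the Clec1b stretch chr4:164533859-164534108, both on the plus strand. Capitals mark GATA motifs, searched as AGATAA, its variant TGATAA, or either with a final G in place of the last A, and the ETS motif, searched as AGGAAG, each on both strands. A GATA and an ETS motif can share bases at their ends, and none of the matches shown do.
Mmrn1: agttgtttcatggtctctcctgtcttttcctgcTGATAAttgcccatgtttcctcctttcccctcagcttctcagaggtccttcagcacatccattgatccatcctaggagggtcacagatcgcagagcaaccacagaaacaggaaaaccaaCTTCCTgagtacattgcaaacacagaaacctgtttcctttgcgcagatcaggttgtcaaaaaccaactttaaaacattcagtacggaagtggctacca
Clec1b: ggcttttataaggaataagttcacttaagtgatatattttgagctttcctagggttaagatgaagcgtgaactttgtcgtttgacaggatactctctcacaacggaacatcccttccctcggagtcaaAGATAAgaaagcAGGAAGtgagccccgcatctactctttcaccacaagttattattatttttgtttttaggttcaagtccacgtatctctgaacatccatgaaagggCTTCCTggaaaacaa
Each stretch holds a GATA motif and an ETS motif, as do 8.03% of the 33469 promoters in the table, where 27.0% hold a GATA motif and 29.5% the ETS motif. Of 10 promoters matched for the platelet list, 5 held a GATA motif, 6 the ETS motif and 3 both. Of the 6 lymphatic genes with an entry, Mmrn1 and Lyve1 held both, Flt4 the ETS motif, and Pdpn, Vegfc and Reln neither. A match of letters describes the sequence and is not a binding site.

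The remaining genes of lymphatic vessels formed a list of 16 tested genes, of which 4 (Adm, Calcrl, Ackr2 and Fat4) were called higher and 0 lower, where 17.5% of all tested genes were called (7 and 1 at an unadjusted p under 0.05, and 4 and 0 by voom), with a median log2 fold change of 0.33. Adm, the peptide adrenomedullin, which acts on lymphatic endothelium in mice, had 10.2, 11.6 and 12.2 FPKM in CGG-Cit libraries, against 3.98, 3.87 and 2.94 FPKM in CGG libraries. It was 3.15-fold higher in CGG-Cit libraries (log2 fold change 1.43 ± 0.135; adjusted p = 0.00410) and passed in all 16 alternatives. Calcrl, its receptor, had 21.5, 26.4 and 23.9 FPKM in CGG-Cit libraries, against 17.4, 13.4 and 10.1 FPKM in CGG libraries. The Calcrl log2 fold change was 0.80 ± 0.190 (adjusted p = 0.0353), and the call was lost without any one library except CGG library 1 (adjusted p up to 0.117). Ramp2, the accessory protein of that receptor, averaged 24.3 ± 4.57 FPKM in CGG-Cit libraries and 15.7 ± 5.91 FPKM in CGG libraries and did not pass (adjusted p = 0.131).

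Ackr2, a scavenger of inflammatory chemokines on lymphatic endothelium, had 28, 20 and 64 reads in CGG-Cit libraries, against 3, 5 and 1 in CGG libraries. The summed reads gave a depth-corrected ratio of 12.3, with an exact 95% interval for counting error of 6.23 to 27.5. Ackr2 averaged 1.72 ± 0.985 FPKM in CGG-Cit libraries and 0.142 ± 0.0944 FPKM in CGG libraries, so it entered the test only through the CGG-Cit libraries and its call is no support for a difference. Fat4, an atypical cadherin that acts in lymphatic valves in mice, averaged 2.71 ± 0.188 FPKM in CGG-Cit libraries and 1.40 ± 0.151 FPKM in CGG libraries (adjusted p = 0.0265), and that call was lost without any one library (0.0519 to 0.0948). The list's count of higher genes was 1 to 2 when any library was left out. From which cells the reads of its called genes came was not tested.

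Ccl21, the chemokine that draws dendritic cells into lymphatic vessels, had 0, 112 and 28 reads in CGG-Cit libraries, against 9, 11 and 5 in CGG libraries. CGG-Cit library 1 had no read, where 3 reads would be 0.235 FPKM, and CGG-Cit library 2 had 8.68 FPKM. The spread within the CGG-Cit group thus exceeded the difference between the groups (log2 fold change 0.92 ± 0.750; adjusted p = 0.422 by limma). The log2 fold change was 0.09 without CGG-Cit library 2 (adjusted p = 0.922) and 1.73 without CGG-Cit library 1 (adjusted p = 0.0845). Stab2, an endocytic receptor of lymphatic and sinusoidal endothelium, had 0.594, 1.16 and 1.45 FPKM in CGG-Cit libraries, against 1.69, 1.77 and 2.14 FPKM in CGG libraries, and did not pass (adjusted p = 0.134).

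Over the 3 related lists together, 8 of 42 tested genes were higher and 1 was lower, or 21.4%, against 17.5% of all tested genes (7.75% higher and 9.78% lower). The 8 include Ackr2, which entered the test only through the CGG-Cit libraries. At an unadjusted p under 0.05 the counts were 14 higher and 3 lower. These cannot be set against the 17.5%, since more of all genes meet that threshold. The median log2 fold change was 0.33, with 31 positive and 11 negative values, and the groups did not overlap for 16 genes, or 38.1%, against 41.7% of all tested genes. The count of higher genes was 2 without CGG library 3, 3 without CGG-Cit library 2, 4 without CGG-Cit library 1 or CGG library 1 or 2, and 14 in TPM units. The change to TPM shifted the median over all tested genes by 0.157 on the log2 scale.

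Among the CGG-Cit libraries the same ones stood at the ends for several genes. CGG-Cit library 1 was the lowest of the 6 for Prox1, Flt4, Reln, Mmrn1 and Ccl21. CGG-Cit library 2 was the highest for Lyve1, Prox1, Flt4 and Ccl21. CGG-Cit library 1 also had the lowest level of Bglap among the 6, at 611 FPKM. In CGG-Cit libraries the order of mean levels per length was Pdpn, Vegfc, Lyve1, Flt4, Mmrn1, Reln and Prox1, where Vegfc, Lyve1, Flt4 and Mmrn1 each differed from the next by less than their summed SDs. In CGG libraries it was Pdpn, Mmrn1, Vegfc, Flt4, Lyve1, Reln and Prox1, where this held for Flt4 and Lyve1.

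The genes whose centred log2(FPKM + 1) values lay closest to those of a lymphatic gene over the 6 libraries were found among 13906 named protein-coding genes by Euclidean distance. For Mmrn1 the nearest was AABR07001512.1 (distance 0.149), followed by Cenpt, a centromere protein (0.217). Nearest to Flt4 were Dusp8 (0.105) and Ptprd (0.113), a pair of phosphatase genes, and nearest to Lyve1 were Slc2a5 (0.135), a fructose transporter, and Zfhx4 (0.144), a zinc finger factor. For Vegfc they were Lrrc73 (0.0863) and Syndig1 (0.129), for Pdpn Neurl2 (0.165) and Inpp1 (0.192), and for Reln AABR07054578.1 (0.176) and Optc (0.181). None of these 12 genes was on a list of lymphatic or endothelial genes.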

How the data were processed

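RNA was sequenced as read pairs on an Illumina instrument in 6 libraries, per the labels' protocols, and groups and replicate numbers came from the sample titles. The deposited table gives FPKM per gene. Tools listed in the submitters' processing notes, without their roles, are DESeq2 1.20.0, featureCounts 1.5.0-p3 and HISAT2 2.0.5, beside the build mRatBN7.2. No source used here gives the strand setting or the annotation release. The last gene of chromosome 1 in the table ends at 282724300, beyond 270492571 in GRCr8, so the table's coordinates carry no build. Without strand, overlapping genes cannot be told apart.

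FPKM times gene length gave whole reads for 100% of the values above 0 within 0.01 reads. In 1 kb of gene, 1 read was worth 0.0596 to 0.0657 FPKM. Tests used R 4.3.3 and limma 3.58.1 (lmFit, eBayes with trend) on log2(FPKM + 1) for the 15965 genes averaging 0.5 FPKM or more, adjusted by Benjamini-Hochberg. On simulated reads with 200 genes changed, the fit recovered 62.6% of those changed by 1 and 97.9% of those changed by 2 on the log2 scale. It also called 16 unchanged genes. Every gene was simulated with the same dispersion, a measure of spread between libraries, so these shares do not hold for genes that vary more. A level relative to a list is the gene's log2(FPKM + 1) minus the list's mean, tested by exact two-sided permutation. Intervals on reads cover counting error only.

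The genes and the 13 lists were chosen with earlier results of these data known, and no list was tested as a set. Of 157 list symbols 153 matched, and Ccbe1, Pecam1, Timd4 and Myh4 were not analysed here. The genes named were the 7 lymphatic genes, up to 4 genes of each list with the smallest p, 11 genes by name, and for each lymphatic gene tested the 2 nearest by distance. Adamts3, Angpt1, Angpt2, Tek, Tie1, Cd163, F13a1, Ramp2, Stab2 and Bglap were chosen after their values were seen. A few genes of the lists are counted there but not reported by name here. The 16 alternatives were pseudocounts of 0.1 and 0.5, no filter and a filter at 2 FPKM, 4 scalings (median-of-ratios, TPM, quantile, equal totals without the 50 most abundant genes), the replicate number as a block, voom on the recovered reads, and each library left out. Promoters came from a RefSeq table, in which 6 of the 7 genes matched by symbol. Python 3.11.15, pandas 2.3.3, scipy 1.17.1 and matplotlib 3.10.9 were used.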

Additional observations from a re-analysis of the deposited data

How the results depend on the processing

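Over all genes, 1237 were higher and 1561 lower. Rescaling to TPM gave 2203 higher and 948 lower, the replicate block 612 higher and 1055 lower, and leaving out 1 library 122 to 1312 higher and 190 to 1622 lower. Of the lymphatic genes 1 was lower, and 0 to 1 with a library left out. In the 3 related lists together 8 were higher, 14 after rescaling to TPM, 3 under the replicate block and 2 to 8 with a library left out, while 1 was lower, 0 without a filter on low values, 0 under the block and 0 to 1 with a library left out. The cause was not tested.

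Directions turned for genes that did not pass. Sox18 was at 0.13 after rescaling to TPM and -0.27 to 0.15 with a library left out, and Vegfc at -0.024 with equal totals without the 50 most abundant genes and -0.11 to 0.14 with a library left out. With a library left out, Flt4 ranged over -0.28 to 0.063, Pdpn over -0.0017 to 0.33 and Cdh1 over -0.53 to 0.038 (the last without CGG-Cit library 2).

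Of 60 named genes measured, 35 passed and 11 of these passed in all 16 alternatives. Of 955 pairs of gene and alternative, 823 kept direction and side of the threshold, 103 lost the call, 19 gained it and 10 changed sign. With a library left out, levels relative to a list kept the sign of their difference, except Lyve1 (-0.13 to 0.29) and Prox1 (-0.20 to 0.13) against pan-endothelial genes and Mmrn1 against platelet genes (-0.06 to 0.25), all of which overlapped between the groups. Same-numbered libraries did not deviate together (correlations -0.096, 0.002 and -0.078), so the numbers were not taken as pairs. With the replicate number as a block Mmrn1 still passed (adjusted p = 0.0340). Depth limits Prox1, Ccl21 and Ackr2 most, which rest on the fewest reads.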

Other observations

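Further lists describe what else the defect tissue carried. Of 10 tested skeletal muscle genes 90.0% were called, against 17.5% of all tested genes. In CGG-Cit libraries 9 of the list were lower and 0 were higher (10 and 0 at an unadjusted p under 0.05, and 9 and 0 by voom), and their median log2 fold change was -5.74. Their summed level was 37.1 to 327 FPKM in CGG-Cit libraries and 6334 to 7903 FPKM in CGG libraries. Acta1, the actin of skeletal muscle, averaged 43.7 ± 50.4 FPKM in CGG-Cit libraries and 2323 ± 355 FPKM in CGG libraries (adjusted p = 0.00823 by limma). Without CGG library 3 the count of lower muscle genes was 5. Myod1 entered the test only through the CGG libraries, and without it 8 of 9 were lower.

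Of 11 tested meningeal genes 3 were higher and 0 were lower, or 27.3% called, against 17.5% of all tested genes. The counts were 8 and 0 at an unadjusted p under 0.05, and 2 and 0 by voom. Slc22a6 and Slc6a13 entered the test only through the CGG-Cit libraries, and without them 3 of 9 were higher by limma. Slc22a6 is among the 8, where it is no support for a difference. The list's summed level was 225 to 1772 FPKM in CGG-Cit libraries and 56.8 to 344 FPKM in CGG libraries. Igfbp2 averaged 48.1 ± 18.0 FPKM in CGG-Cit libraries and 7.66 ± 5.57 FPKM in CGG libraries (adjusted p = 0.0219 by limma). The meningeal count was 0 without CGG-Cit library 2 or CGG library 2, 1 without CGG-Cit library 1 or CGG library 1 or 3, and 6 without CGG-Cit library 3, and the Igfbp2 call was lost without CGG-Cit library 1 or 2 or CGG library 1 or 2 (adjusted p up to 0.0790). The dura carries lymphatic vessels, and the part of meningeal tissue in the lymphatic gene levels was not tested.

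Of 7 tested neuron and Schwann cell genes 14.3% were called, against 17.5% of all tested genes. In number 1 was higher and 0 were lower (also at an unadjusted p under 0.05 and by voom). This was Stmn2, a tubulin-binding protein of growing axons, at 10.3 ± 0.804 FPKM in CGG-Cit libraries and 1.48 ± 0.973 FPKM in CGG libraries (adjusted p = 0.0117 by limma), lost without CGG-Cit library 2 (0.0504). Of 2 tested epithelial genes 0 passed by limma, by voom or at an unadjusted p under 0.05, and Krt14 was listed at 0 in every library.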
